A study of Homo sapiens with 4 samples.

Results

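Nascent mesoderm cells made up 173 of 4240 cells in 2 samples of human blastoids, which are stem cell aggregates made to model the blastocyst. They were chosen by a rule on measured counts of unique molecular identifiers (UMIs), the tags that let each captured RNA molecule be counted once. A cell needed at least 500 detected genes and a UMI sum of 2 or more over the mesoderm genes MESP1, MSGN1, MIXL1 and TBX6. It could have fewer than 3 detected of the pluripotency genes POU5F1, SOX2, NANOG, TDGF1 and PRDM14, and fewer than 2 detected of the amnion genes TFAP2A, TFAP2B, GABRP, VTCN1 and KRT7. These 14 genes chose the cells, so their values are a description and were not tested.

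The series held 9680 cells with at least 500 genes, in 4 samples of the established human embryonic stem cell line KhES1, profiled with droplet-based 3' single-cell RNA sequencing. The samples hESC 1 and hESC 2 were stem cells kept in mTeSR-1 medium. The samples blastoid 3 and blastoid 4 came from KhES1 aggregates embedded in a hydrogel and fed with iBlastoid medium. Titles give all 4 samples 1 day label, whereas the tables of the blastoid samples are named for a later day, so no age is given. No label says that samples of a group were separate cultures, so p-values cover only these samples, and the spread behind them may be technical. Where a fit took the sample as a block, its p-values rest on how differences between classes of cells varied across samples. Each gene's spread in such a fit was drawn toward the trend over all genes. Such a fit takes out the spread between samples itself.

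Mesoderm forms when epithelial cells of the epiblast pass through the primitive streak under NODAL, WNT, FGF and BMP signals and become motile. TBXT and EOMES are transcription factors of the streak, and MIXL1 is a homeobox factor of cells leaving it. MESP1 marks early mesoderm that gives rise to heart and other tissues, while MSGN1 and TBX6 act in presomitic mesoderm, the source of the somites. APLNR, the receptor for apelin and APELA, is found on early mesoderm.

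The rule was met by 134 of 2289 cells of blastoid 3 (5.85%, exact Clopper-Pearson 95% interval 4.93 to 6.90%) and by 39 of 1951 cells of blastoid 4 (2.00%, 1.43 to 2.72%). The mean share was 3.93% ± 2.73 (SD, n = 2), and the intervals of the samples, which cover counting error only, did not overlap. No cell of hESC 1 (0 of 2265, which allows up to 0.132%) or hESC 2 (0 of 3175, up to 0.0945%) met it. In each stem cell sample 1 cell had a UMI sum of 2 or more, and both cells exceeded the pluripotency limit. Just inside the threshold, 35 and 12 cells of blastoid 3 and blastoid 4 had a UMI sum of 2, and just outside it 158 and 107 cells within the other limits had a UMI sum of 1. The pluripotency limit left out 8 and 7 cells with enough mesoderm UMIs, and the amnion limit left out 0 and 2.

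**Figure D1:**
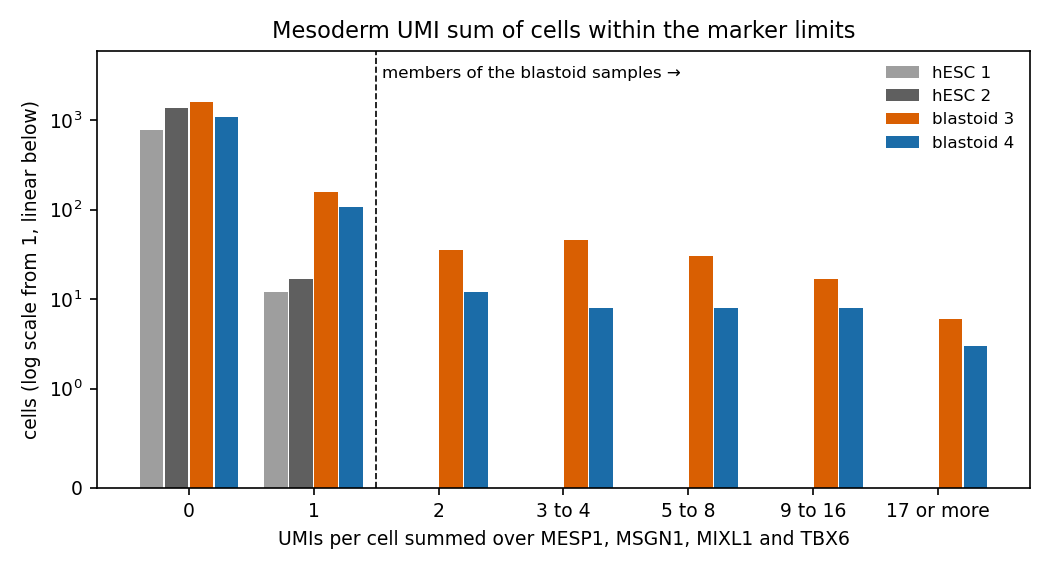
Number of cells (vertical axis, logarithmic from 1 and linear below) by UMIs per cell summed over MESP1, MSGN1, MIXL1 and TBX6 (horizontal axis), among cells within the pluripotency and amnion limits, with 1 bar per sample. Blastoid 3 had 35 cells at a sum of 2 and 6 cells at 17 or more, blastoid 4 had 12 and 3, and the stem cell samples had none at 2 or more.

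The rule genes were found in different combinations. MESP1 was detected in 124 of the 173 cells, MSGN1 in 114, MIXL1 in 56 and TBX6 in 26. At least 2 of these genes were detected in 115 cells and all 4 in 3 cells. MESP1 and MSGN1 were found together in 76 cells, MESP1 and MIXL1 in 42, and MSGN1 and MIXL1 in 17. In counts per 1000000 UMIs (CPM) in the summed cells of blastoid 3 and blastoid 4, MESP1 stood at 304 and 287, MSGN1 at 223 and 160.0, MIXL1 at 159 and 160.0, and TBX6 at 22.5 and 13.3. Pluripotency genes were still present below the limit, since 80 cells had 0 of the 5 detected, 59 had 1 and 34 had 2. POU5F1 was at 121 and 209 CPM, TDGF1 at 58.0 and 71.1, SOX2 at 4.68 and 0, and NANOG at 0.936 and 2.22. Of the amnion genes, TFAP2B, VTCN1 and KRT7 had 0 UMIs.

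Promoter sequences of genes in this programme are shown because WNT and NODAL signals act on them through TCF/LEF and FOXH1 factors. For MIXL1 and MSGN1 (both in the rule) and SP5, a WNT target measured below, the windows run from 250 bases before the start of transcription to 50 after it, 5′ to 3′ on the gene's strand, as RefSeq gives them on GRCh38.p14. Capitals mark the TCF/LEF letters CTTTGA and the FOXH1 letters AATCCACA on either strand, and neighbouring matches run together.
MIXL1, chr1:226223414-226223713, plus strand: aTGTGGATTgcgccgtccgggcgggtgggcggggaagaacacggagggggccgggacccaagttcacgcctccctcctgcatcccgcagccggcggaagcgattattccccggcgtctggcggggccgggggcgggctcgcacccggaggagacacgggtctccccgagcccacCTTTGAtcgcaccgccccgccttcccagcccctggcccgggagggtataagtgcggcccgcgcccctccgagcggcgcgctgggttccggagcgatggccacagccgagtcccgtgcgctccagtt
MSGN1, chr2:17816210-17816509, plus strand: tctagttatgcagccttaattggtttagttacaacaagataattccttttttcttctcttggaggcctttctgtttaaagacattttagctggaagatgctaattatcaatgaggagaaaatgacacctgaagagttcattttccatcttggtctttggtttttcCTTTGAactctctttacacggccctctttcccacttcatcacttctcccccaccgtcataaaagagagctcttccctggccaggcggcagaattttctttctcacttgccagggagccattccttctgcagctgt
SP5, chr2:170715087-170715386, plus strand: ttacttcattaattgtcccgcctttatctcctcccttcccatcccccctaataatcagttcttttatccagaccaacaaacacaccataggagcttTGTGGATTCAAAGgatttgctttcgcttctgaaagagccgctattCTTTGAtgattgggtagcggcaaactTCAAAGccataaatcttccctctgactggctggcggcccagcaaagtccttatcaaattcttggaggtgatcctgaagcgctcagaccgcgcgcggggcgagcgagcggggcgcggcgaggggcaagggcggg
The MIXL1 window held 1 TCF/LEF match that begins 76 bases before the start, the MSGN1 window 1 that begins 85 bases before it, and the SP5 window 3. MIXL1 and SP5 also held 1 FOXH1 match each. Among 35116 RefSeq windows of this length, 12.9% held CTTTGA, 0.817% held AATCCACA and 0.980% held TCACACCT, the letters of a T-box site. The same search was made for the 4 mesoderm genes of the rule together with the 17 streak and presomitic genes called higher below, of which 15 of 21 had a window. CTTTGA was in 5 of these 15 genes (MSGN1, MIXL1, SP5, TBXT and CDX2), AATCCACA in 3 (MIXL1, SP5 and MESP2) and TCACACCT in 0. A gene was counted if any of its windows matched (for TBXT, window 2), whereas the percentages are shares of windows. The counts and percentages are thus not like for like. A match is a run of letters and was not tested as a binding site.

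The summed nascent mesoderm cells held 1068313 UMIs in blastoid 3 and 450016 in blastoid 4, so 1 UMI was worth 0.936 and 2.22 CPM. Their median depth was 7575 and 11415 UMIs per cell, above the 5984 and 8205 of the remaining cells defined below, and their median mitochondrial share was 8.83% and 10.1%, against 8.60% and 9.81%. Scrublet called 0 of the 173 cells doublets. Over all cells it called 10 of 2289 in blastoid 3 (0.437%) and 32 of 1951 in blastoid 4 (1.64%). With so few calls, the 0 does not set the nascent mesoderm cells apart. The blastoid tables shared 1035 barcodes, and 32 of the 39 barcodes of these cells in blastoid 4 also occurred in blastoid 3, where none had 500 genes and their median was 352 UMIs. None of the 134 barcodes of blastoid 3 occurred in blastoid 4, and none of either sample occurred in the stem cell tables. The summed counts of the 2 samples differed by more than sampling noise, with a chi-square of 2.27 per degree of freedom over 10452 genes.

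The first comparison set the nascent mesoderm cells against the blastoid cells that met the same limits but had a mesoderm UMI sum of 0 or 1, called remaining cells (1743 in blastoid 3 and 1183 in blastoid 4). The remaining cells carried matrix genes such as COL3A1, LUM and POSTN together with HAND1. Against them, nascent mesoderm cells had more RNA of primitive streak genes, of CDX genes, of NODAL and FGF pathway genes and of APLNR, and less RNA of fibrillar collagens and other matrix genes. HAND1, GATA6 and FOXF1 of the lateral plate did not pass the test. Counts were summed per sample and class, and edgeR's quasi-likelihood test on 8 sums with the sample as a block called 1099 of 12348 genes at an adjusted p under 0.05, a background of 8.90%. Of these, 575 were higher (4.66%) and 524 lower (4.24%). The fit had 3 residual degrees of freedom per gene and took 18.2 more from the trend over all genes. Choosing cells on MESP1, MSGN1, MIXL1 and TBX6 also favours genes that vary with them from cell to cell, and a call says that a difference exceeded the spread between sums, not that the cells form a separate type.

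**Figure D2:**
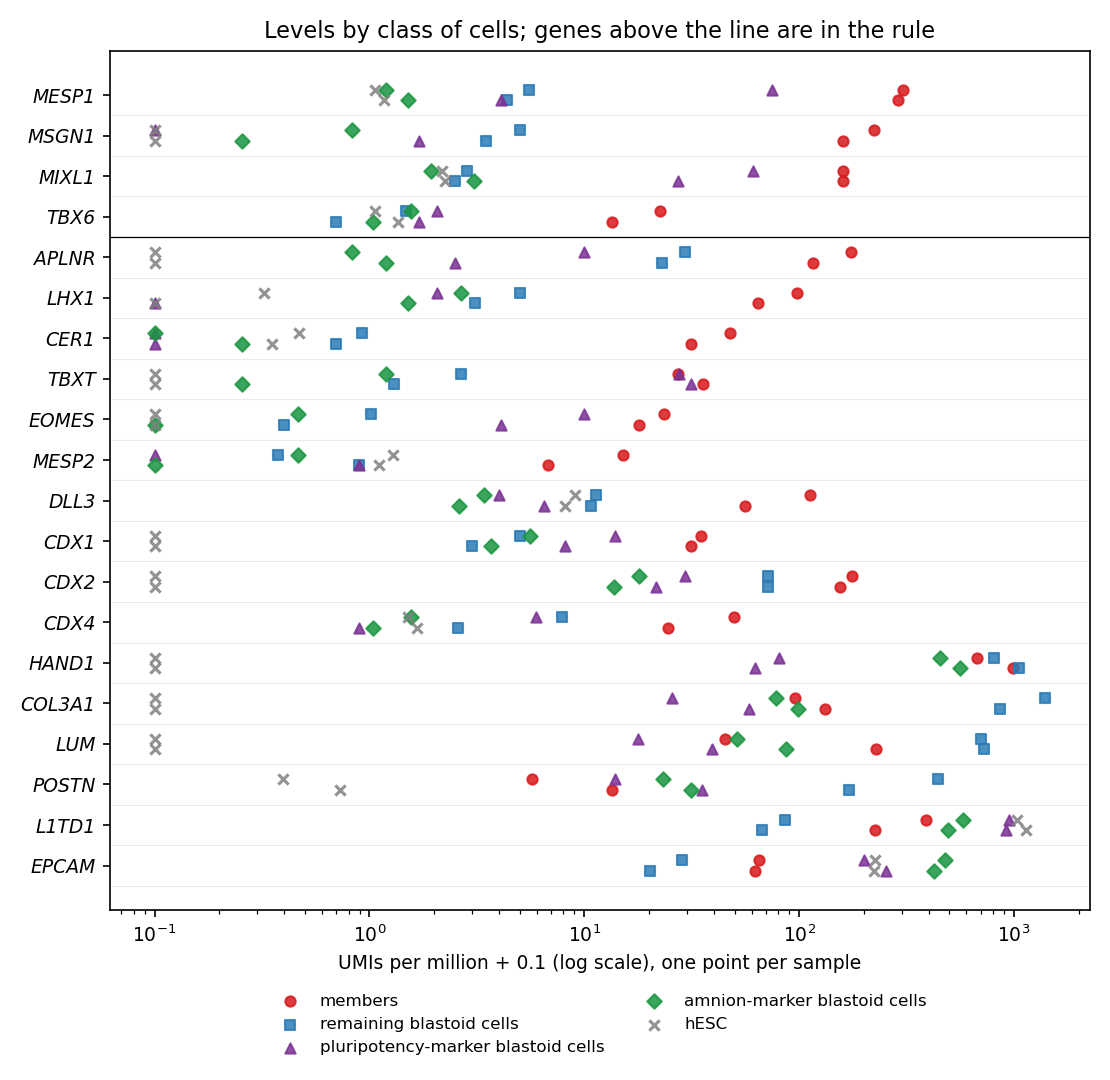
Levels of 20 genes in CPM + 0.1 (horizontal axis, logarithmic), with 1 point per sample for each class of cells (nascent mesoderm cells are labelled members); the upper 4 genes are in the rule. APLNR, LHX1, DLL3, CDX1, CDX2 and CDX4 lie higher in both nascent mesoderm sums than in every other class, while COL3A1 and POSTN lie far to the left of the remaining cells.

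APLNR was the only marker proposed for these cells that the rule did not use. It stood at 175 CPM in blastoid 3 and 116 in blastoid 4, against 29.3 and 23.0 in the remaining cells, so both values lay well above the reference. The log2 difference was 2.48 ± 0.16 (SE, edgeR adjusted p = 3.6e-10). After each cell was thinned to 2000 UMIs, APLNR was detected in 28.6% (95% interval 21.1 to 37.0%) and 20.5% (9.30 to 36.5%) of nascent mesoderm cells. It was detected in 5.64% and 4.45% of remaining cells and in 1 of 352 amnion-marker cells of blastoid 3 (0.284%) and in 0 of 632 of blastoid 4, which allows a share of up to 0.475%. Amnion-marker cells, thinned to the same depth, give the level in another class of cells. The part of free RNA in these detections was not tested. Unthinned, 69 of 134 and 17 of 39 nascent mesoderm cells had an APLNR UMI.

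Among primitive streak genes, 12 of 14 tested were called higher, with a median log2 difference of 2.95 against 0.0006 over all tested genes. WNT3 and GATA4 were not called, and GSC, FGF8 and FGF17 were too low to test. The filter on low counts can keep a gene that is high in the nascent mesoderm sums alone. With no filter, 12 of 16 streak genes were called higher. TBXT, the streak factor also called brachyury, stood at 27.1 and 35.6 CPM against 2.56 and 1.20 (log2 difference 3.92 ± 0.43, edgeR adjusted p = 1.0e-06). EOMES was at 23.4 and 17.8 CPM against 0.916 and 0.299 (4.93 ± 0.56). Both genes lay above the reference in both samples, but few cells held them. TBXT was detected in 19 of 134 and 9 of 39 cells, and EOMES in 11 and 3. LHX1, a LIM homeobox factor of anterior streak and early mesoderm, was at 97.3 and 64.4 CPM against 4.95 and 2.99 (4.32 ± 0.26, edgeR adjusted p = 1.0e-10). CER1, a secreted inhibitor of NODAL and BMP that also marks endoderm, was at 47.7 and 31.1 CPM against 0.824 and 0.598 (5.74 ± 0.44). The levels of LHX1 and CER1 also came from few cells. LHX1 was detected in 19 of 134 and 4 of 39 cells, and 19 of its 29 UMIs in blastoid 4 lay in 1 cell, without which its level there was 23.0 CPM. CER1 was detected in 10 cells of blastoid 3 and in 1 cell of blastoid 4, which held all 14 UMIs of that sample.

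EVX1, a homeobox factor of the posterior streak, was spread over more cells (32 and 14) and stood at 43.1 and 42.2 CPM against 6.32 and 5.38 (log2 difference 2.82 ± 0.33). SP5, whose promoter is printed above, was at 41.2 and 55.6 CPM against 7.33 and 7.57 (2.66 ± 0.29). SNAI1, a repressor of epithelial genes, was at 58.0 and 53.3 CPM against 13.1 and 15.9 (1.99 ± 0.21). For all 3 genes both samples lay above both reference values. When only the 60 and 13 cells with 0 pluripotency genes and 0 amnion genes were kept, 5 of 12 tested streak genes were called, and TBXT, EOMES, SP5, SNAI1 and NODAL were among those no longer called. Fits with either blastoid sample left out took their spread from the stem cell sums, so they cannot show whether the streak calls repeat between samples.

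The CDX genes, homeobox factors that set posterior identity and act upstream of HOX genes, all rose. CDX2 was at 176 and 156 CPM against 71.2 and 71.6 (1.21 ± 0.13), CDX1 at 34.6 and 31.1 against 4.95 and 2.89 (2.99 ± 0.32), and CDX4 at 49.6 and 24.4 against 7.78 and 2.49 (2.81 ± 0.31). Of 6 posterior HOX genes tested, 0 were called in the same edgeR fit, with 1 at an unadjusted p under 0.05 and 0 called by DESeq2. Of 16 anterior and central HOX genes tested, 9 were called higher, and 5 were with no block and 5 of 18 without blastoid 3. HOXC6 had the largest such difference among those named, at 103 and 44.4 CPM against 28.5 and 22.3 (1.63 ± 0.21), and HOXB3 was at 143 and 136 against 95.1 and 70.5 (0.71 ± 0.13). Without blastoid 3 the call on HOXC6 was lost, and without blastoid 4 that on HOXB3.

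Of 10 presomitic and segmentation genes tested, 5 were called higher, and 10 more were too low to test, among them DLL1, LFNG, RIPPLY2 and TBX18. With no filter on low counts, 6 of 19 were called higher. The count was 3 with DESeq2, 2 of 14 without blastoid 3 and 2 of 8 among cells with 0 pluripotency and 0 amnion genes. DLL3, a Notch ligand of presomitic mesoderm, was at 112 and 55.6 CPM against 11.3 and 10.7 (3.00 ± 0.22, edgeR adjusted p = 3.2e-09). MESP2, which acts where segments form, was at 15.0 and 6.67 CPM against 0.275 and 0.797 (4.45 ± 0.77), and 19 UMIs carried it; its call was lost without blastoid 3. CYP26A1, which breaks down retinoic acid, was at 43.1 and 31.1 CPM against 8.06 and 8.27 (2.24 ± 0.28), although 7 of its 14 UMIs in blastoid 4 came from 1 cell. HES7, the oscillating repressor of the segmentation clock, did not pass the test, at 17.8 and 4.44 CPM against 7.14 and 6.67 (0.91 ± 0.45), nor did the WNT agonist RSPO3, at 31.8 and 8.89 CPM against 23.8 and 29.3.

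Lateral plate genes did not follow the streak genes: 1 of 19 tested was called higher and 7 lower, and 3 were lower with DESeq2 and 4 with no block. HAND1, a factor of lateral plate and extraembryonic mesoderm, was at 672 and 989 CPM against 806 and 1054 (log2 difference -0.20 ± 0.09, edgeR adjusted p = 0.18). It was detected in 119 of 134 and 37 of 39 nascent mesoderm cells. GATA6 was at 97.7 ± 3.20 CPM against 125 ± 9.64 (SD, n = 2; -0.39 ± 0.15), and FOXF1 at 39.3 and 31.1 against 34.0 and 30.1 (0.14 ± 0.22); neither passed the test, which does not show equal levels. HAND2 was lower, at 35.6 and 84.4 CPM against 276 and 153 (-2.14 ± 0.26), as was PITX1, a hindlimb and lateral plate factor, at 249 and 480.0 against 632 and 908 (-1.15 ± 0.13). TBX3 was the gene called higher, at 491 and 462 CPM against 345 and 308 (0.51 ± 0.11), and this call was lost when either sample was left out and without the block. The call on PITX1 was lost with DESeq2 and without the block.

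Matrix genes of stromal cells were lower. Of 15 tested, 11 were called lower (median log2 difference -1.27). COL3A1, a fibrillar collagen, was at 95.5 and 131 CPM against 1396 and 861 (-3.41 ± 0.21, edgeR adjusted p = 2.2e-10). POSTN, a secreted matrix protein, was at 5.62 and 13.3 CPM against 445 and 169.5 (-5.36 ± 0.50), and the proteoglycan gene LUM at 44.9 and 227 against 703 and 726 (-2.76 ± 0.25). LUM was higher in blastoid 4 than in blastoid 3 but lay below the reference in each. COL1A1 (-1.58 ± 0.15), COL1A2 (-1.27 ± 0.11) and COL6A3 (-2.49 ± 0.20) fell too and stayed called in all 11 alternatives that were run. Thinned to 2000 UMIs, COL3A1 was detected in 10.5% and 12.8% of nascent mesoderm cells, in 58.3% and 55.6% of remaining cells and in 9.66% and 11.4% of amnion-marker cells.

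**Figure D3:**
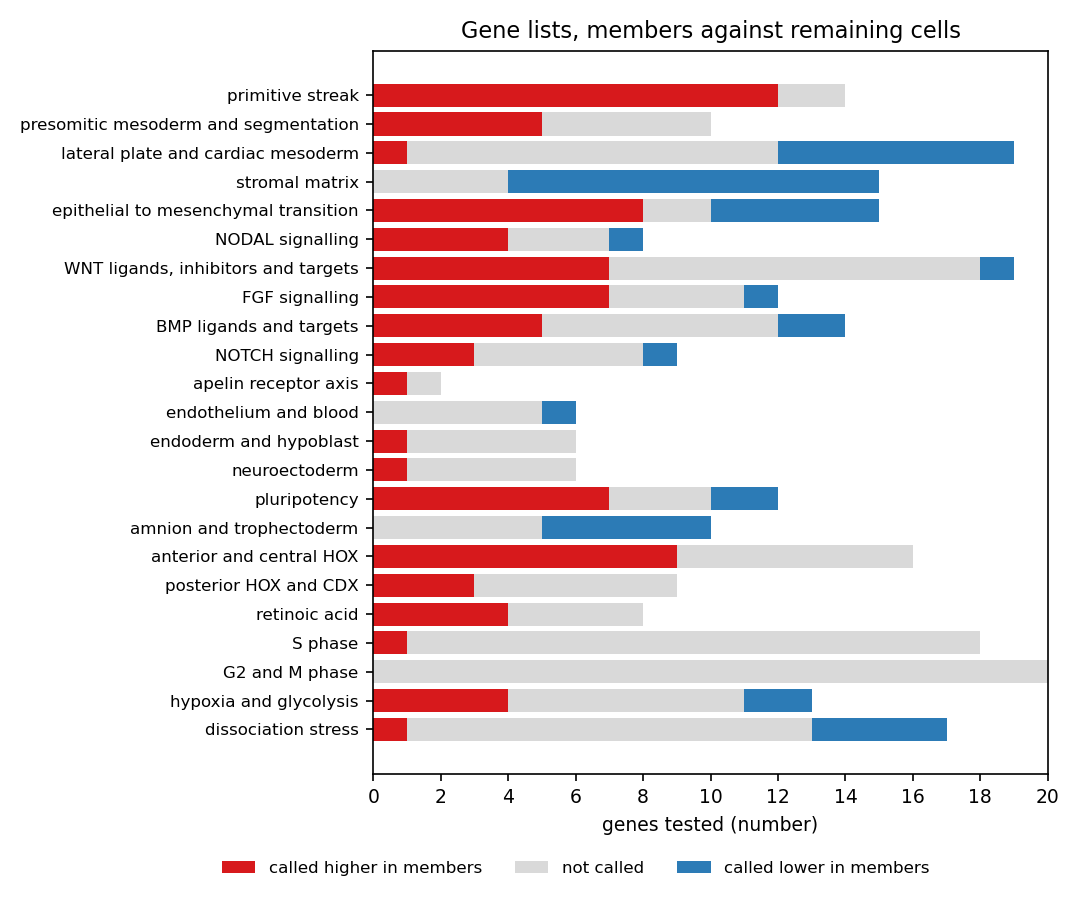
Number of tested genes of each list (bar length) called higher, called lower or not called between nascent mesoderm and remaining cells. Primitive streak genes were higher in 12 of 14 and stromal matrix genes lower in 11 of 15, while 0 of 20 G2 and M phase genes were called.

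Genes of the epithelial to mesenchymal transition moved in both directions, with 8 of 15 called higher and 5 lower. The adhesion genes called (CDH1, CDH2, CDH11, EPCAM, CLDN6 and CLDN7) were all higher. CDH1, the epithelial cadherin, was at 94.5 and 91.1 CPM against 48.6 and 33.3 (1.13 ± 0.17), and the epithelial adhesion gene EPCAM at 64.6 and 62.2 against 28.4 and 20.2 (1.36 ± 0.21). CDH11, a mesenchymal cadherin, was at 334 and 353 CPM against 257 and 193 (0.58 ± 0.12). VIM, the intermediate filament of mesenchymal cells, was lower at 486 and 531 CPM against 808 and 974 (-0.79 ± 0.12), and SNAI2, ZEB1, ZEB2 and TWIST1 were lower as well. With no block 2 genes of the list were called lower, as were 2 without blastoid 3, and VIM lost its call with no block. Among cells with 0 pluripotency and 0 amnion genes 3 of 15 were higher and 0 lower, with CDH1 and EPCAM no longer called, and CDH11 lost its call without the block, with DESeq2 and without blastoid 4.

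Of 8 NODAL pathway genes tested, 4 were called higher. CFC1, a co-receptor for NODAL, was at 30.0 and 28.9 CPM against 3.39 and 1.20 (3.58 ± 0.44), and FOXH1, which carries the signal to DNA, at 30.9 and 44.4 against 6.59 and 8.17 (2.33 ± 0.28). NODAL itself had 9 and 10 UMIs, or 8.42 and 22.2 CPM, against 1.56 and 1.79 (2.91 ± 0.49). It was detected in 6 of 134 and 3 of 39 cells.

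FGF pathway genes were higher in 7 of 12 and lower in 1. The feedback inhibitor SPRY1 was at 95.5 and 111 CPM against 36.2 and 33.1 (1.50 ± 0.18), and the transcription factors ETV4 (2.98 ± 0.32) and ETV5 (1.68 ± 0.30), which respond to FGF, were higher too. Among cells with 0 pluripotency and 0 amnion genes ETV4 was no longer called. DUSP6, a phosphatase that restrains the pathway, was at 163 and 77.8 CPM against 57.4 and 44.1 (1.28 ± 0.19), and its call was lost with DESeq2, without the block and without blastoid 3. FGFR2 was the gene that fell, at 25.3 and 40.0 CPM against 134 and 118 (-2.10 ± 0.19).

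Of 19 WNT genes tested, 7 were higher and 1 lower, while 3 of 20 were higher without blastoid 3 and 4 of 19 among cells with 0 pluripotency and 0 amnion genes. The ligand WNT5B was at 156 and 144 CPM against 49.5 and 43.8 (1.66 ± 0.14), and the ligand WNT5A at 549 and 391 against 334 and 257 (0.67 ± 0.11), whose call was lost without the block and without blastoid 3. The secreted inhibitor FRZB was lower, at 0.936 and 8.89 CPM against 33.0 and 33.8 (-3.32 ± 0.46). Of 14 BMP genes tested, 5 were higher and 2 lower, with 2 higher when the block was left out and 3 without blastoid 3. The BMP targets ID1 and ID3 were at 392 and 460.0 against 188 and 250.2 CPM (0.95 ± 0.10) and at 432 and 691 against 152 and 212 CPM (1.58 ± 0.10). Both ID genes stayed called in all 11 alternatives, whereas BAMBI, a decoy receptor also induced by BMP, was lower (-0.96 ± 0.15), a call lost without the block.

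Pluripotency genes outside the rule were called higher in 7 of 12 and lower in 2. The number higher was 2 with no block, 3 among cells with 0 pluripotency and 0 amnion genes, 2 of 13 without blastoid 3 and 3 of 13 without blastoid 4. L1TD1, an RNA-binding protein of pluripotent cells, was at 389 and 224 CPM against 85.6 and 67.1 (2.05 ± 0.12), and SALL4 at 283 and 224 against 107 and 98.4 (1.30 ± 0.11). These calls held among cells with 0 pluripotency and 0 amnion rule genes, while PODXL was lower (-1.63 ± 0.17). The rise of L1TD1 depended on the reference, since it was called lower than in amnion-marker cells. Against all other blastoid cells L1TD1 was called higher with the block but not without it (0.28 ± 0.27, edgeR adjusted p = 0.72). Amnion and trophectoderm genes outside the rule were called lower in 5 of 10, among them KRT8, KRT18 and KRT19. With no block the calls on these 3 keratins were lost and 1 gene of the list was lower, and the call on KRT18 was also lost without blastoid 3. Of 20 G2 and M phase genes, edgeR called 0, with 1 at an unadjusted p under 0.05 and 0 called by DESeq2, although 7 were called lower against depth-matched cells. Of 18 S phase genes, 1 was called.

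Markers of other cell types were read over whole lists. Of 15 endothelial and blood genes in the tables, 7 and 8 were at 0 in the nascent mesoderm sums, CDH5, PECAM1 and TIE1 among them, and the summed level was 200.3 and 216 CPM against 227 and 206 in remaining cells. TEK was called lower among the 6 tested, while 0 were with DESeq2 or with no block. Of 14 endoderm and hypoblast genes, 6 were at 0 in each sample, SOX17, HNF4A, FOXA1 and TTR among them in both, and the summed level was 179 and 169 CPM against 167 and 150.4. Of the 6 tested, CER1 was called higher, and APOA2 was detected in 11 and 3 cells and FOXA3 in 5 and 3. The 11 neuroectoderm genes summed to 252 and 293 CPM against 217 and 222, with 4 at 0 in each sample, PAX6, ZIC1 and HES5 among them in both. Of the 6 tested, NES, an intermediate filament gene of neural progenitors, was called higher, and 0 were with no block or without blastoid 3. Summed dissociation stress genes were at 1135 and 1531 CPM against 1700.3 and 1783, and 4 of 17 (FOS, FOSB, EGR1 and ATF3) were called lower and 1, IER3, higher. Without blastoid 3 the calls on FOS, FOSB and EGR1 were lost and 1 of 17 was lower. The part of these genes in the other differences was not tested.

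Among called genes whose log2 CPM averaged 5 or more, the largest rises were led by neuropeptides. NTS, which encodes neurotensin, was at 774 and 818 CPM against 57.1 and 36.4 (4.07 ± 0.21, edgeR adjusted p = 1.7e-11), was detected in 93 of 134 and 29 of 39 cells, and stayed called in all alternatives. GAL, which encodes galanin, was at 144 and 216 CPM against 21.0 and 17.9 (3.12 ± 0.17) but was detected in 42 and 12 cells, and its call was lost among cells with 0 pluripotency and 0 amnion genes. The same held for the noncoding gene LINC01356 (3.29 ± 0.27), for TMEM154 (2.68 ± 0.23) and for MIR302CHG, the host of the pluripotency miR-302 cluster, at 68.3 and 17.8 CPM against 6.96 and 3.88 (3.09 ± 0.25), whose call was also lost without blastoid 3. The largest falls by the same measure were in SST, which encodes somatostatin, POSTN, CXCL14, SLN and NR2F2, whose call was lost without blastoid 3 (edgeR adjusted p = 0.17). SST had 0 UMIs in the nascent mesoderm cells against 84.3 and 41.1 CPM, at least 32.2-fold lower, and the chemokine CXCL14 was at 15.0 and 8.89 CPM against 397 and 285 (-4.75 ± 0.31). Against remaining cells matched on depth, 954 genes were called in place of 1099.

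**Figure D4:**
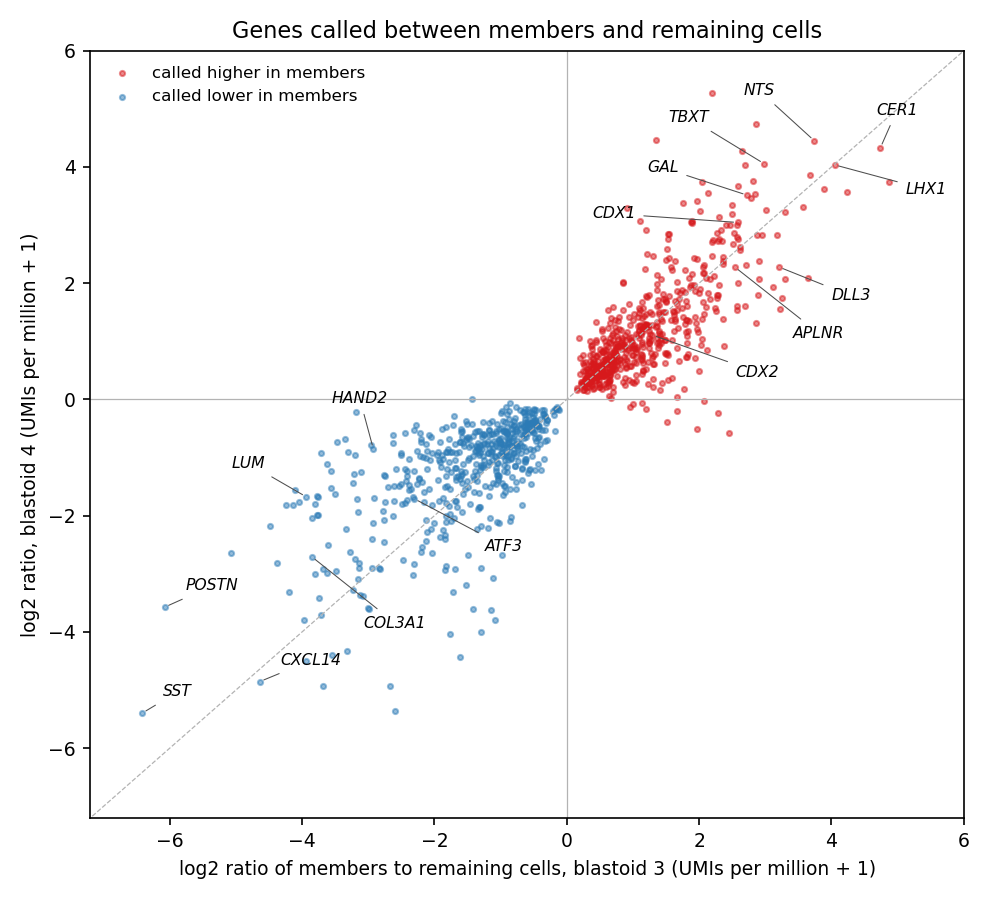
Log2 ratio of nascent mesoderm to remaining cells in blastoid 3 (horizontal axis) and blastoid 4 (vertical axis), on CPM + 1, for the 1099 genes called by the joint fit, with rule genes left out; red points were called higher and blue lower. LHX1, CER1 and NTS lie at the upper right and SST, POSTN and CXCL14 at the lower left, and HAND2 and LUM differ more in blastoid 3 than in blastoid 4.

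Against all 4067 other blastoid cells, the fit with the sample as a block called 1478 of 14443 genes (10.2%), 605 of them higher (4.19%) and 873 lower (6.04%). That fit had 1 residual degree of freedom and set the spread of all genes to their common trend. Without the block 305 genes were called, and the values given here come from that fit. Among genes whose log2 CPM averaged 5 or more, NTS (log2 difference 4.05 ± 0.29, edgeR adjusted p = 0.00031), APLNR (2.98 ± 0.28) and NRP2, a semaphorin and VEGF co-receptor (2.61 ± 0.21), led the rises. PTCH1, the hedgehog receptor that is also a hedgehog target, was at 258 and 124 CPM against 69.2 and 27.4 (2.01 ± 0.41, edgeR adjusted p = 0.041). The ligands FGF19 (1.93 ± 0.22) and WNT5B (1.92 ± 0.20), the gene SMC6 of chromosome maintenance (1.89 ± 0.26) and GCHFR, which regulates tetrahydrobiopterin synthesis (1.91 ± 0.20), rose as well. PAPPA2, which encodes a protease of IGF-binding proteins, was at 0.936 and 2.22 CPM against 23.1 and 91.9, and LINC00379 at 0 and 8.89 against 29.9 and 69.2. These genes passed the test with the block but not without it (edgeR adjusted p = 0.059 and 0.052). EPAS1, a hypoxia-inducible factor subunit, fell, at 7.49 and 11.1 CPM against 109 and 167 (-4.06 ± 0.40).

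Blastoid cells with at least 3 pluripotency genes (46 and 92 cells) formed the second reference class, and 1901 of 12348 genes (15.4%) were called against them, 883 higher (7.15%) and 1018 lower (8.24%). Here HOX genes were higher in 14 of 16 anterior and central members and lateral plate genes in 10 of 19. HAND1 was at 672 and 989 CPM against 80.5 and 62.3 (log2 difference 3.55 ± 0.13), TBX3 at 491 and 462 against 39.3 and 31.9 (3.63 ± 0.19), and CDH11 at 334 and 353 against 7.85 and 17.6 (4.39 ± 0.24). The 3 genes differed strongly in both samples. APLNR was at 9.82 and 2.40 CPM in the reference (4.82 ± 0.34), and LHX1 had 1 UMI there, with 133 in nascent mesoderm cells. CER1 had 0 UMIs in the reference and was at least 25.1-fold higher. Among genes whose log2 CPM averaged 5 or more, the rises were led by PLXNA2 (5.11 ± 0.46), a semaphorin co-receptor, by DDR2, by HOXB3 (4.57 ± 0.31) and by NRP1 (4.55 ± 0.53). The call on DDR2, a collagen receptor, was lost without the block and without blastoid 4 (edgeR adjusted p up to 0.33).

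TBXT, SP5 and EOMES were not called between these classes over all nascent mesoderm cells. TBXT was at 27.1 and 35.6 CPM against 27.5 and 31.2 in pluripotency-marker cells (-0.17 ± 0.40, edgeR adjusted p = 0.84), SP5 at 41.2 and 55.6 against 33.4 and 74.3 (-0.36 ± 0.28), and EOMES at 23.4 and 17.8 against 9.82 and 3.99 (1.47 ± 0.63). Among the cells with 0 pluripotency and 0 amnion genes, TBXT (-2.83, edgeR adjusted p = 0.016) and SP5 (-1.89, edgeR adjusted p = 0.013) were called lower than in pluripotency-marker cells. NODAL was lower in nascent mesoderm cells, at 8.42 and 22.2 CPM against 177 and 171 (-3.82 ± 0.28, edgeR adjusted p = 2.3e-09). Other genes of pluripotent cells fell, among them the noncoding gene ESRG (-4.49 ± 0.17), EPCAM (-2.01 ± 0.19), CDH1 (-1.17 ± 0.17) and L1TD1 (-1.67 ± 0.12). EPCAM, CDH1 and L1TD1 thus lay between the remaining cells and the pluripotency-marker cells.

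Against the amnion-marker cells (366 and 637 cells with at least 2 amnion genes and fewer than 3 pluripotency genes), 4289 of 12348 genes (34.7%) were called, 2042 higher (16.5%) and 2247 lower (18.2%). APLNR was at 0.732 and 1.09 CPM in the reference (log2 difference 6.94 ± 0.29), and CDH2, the cadherin of mesenchymal and neural cells, at 216 and 120.0 CPM against 6.59 and 4.22 (4.75 ± 0.19). HOXB-AS3, a noncoding gene of the HOXB cluster, was at 780 and 476 CPM against 16.1 and 16.3 (5.12 ± 0.19). All 9 posterior HOX and CDX genes tested were higher here, as were 14 of 14 streak genes. The epithelial genes EPCAM (-2.99 ± 0.16) and KRT18 (-2.59 ± 0.07) and the amnion and trophoblast factor GATA3 (-3.25 ± 0.16) were lower. Cycling genes also differed, with 19 of 20 G2 and M phase genes and 14 of 18 S phase genes higher, and 16 of 17 dissociation stress genes lower. Summed stress genes stood at 3781 and 3935 CPM in the amnion-marker cells, and their part in the other differences was not tested.

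Against the stem cells, 4369 of 14190 genes (30.8%) were called, 2089 higher (14.7%) and 2280 lower (16.1%). HAND1, TBX3, PITX1, HOXB-AS3 and APLNR had 0 UMIs in the stem cells and were missing from both stem cell tables, so that folds are lower bounds against the count that such tables could have left out. HAND1 was at least 2460.4-fold higher, HOXB-AS3 at least 2215-fold, TBX3 at least 1551-fold, PITX1 at least 1020-fold and APLNR at least 506-fold. TBXT was at least 95.2-fold and EOMES at least 69.8-fold higher by the same bound. All 13 streak genes, all 14 anterior and central HOX genes and all 12 BMP genes tested were higher. Of 13 pluripotency genes tested, 11 were lower. L1TD1 was at 389 and 224 CPM against 1029 and 1132 (-1.98 ± 0.19), and EPCAM at 64.6 and 62.2 against 226 and 222 (-2.03 ± 0.18). PLA2G4C, a phospholipase gene, had 0 UMIs against 56.1 and 52.5 CPM, at least 27.4-fold lower. VIM was higher than in stem cells, at 486 and 531 CPM against 35.7 and 30.4 (3.72 ± 0.16).

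The nascent mesoderm cells differed among themselves. MSGN1 or TBX6 was detected in 93 of 134 and 30 of 39 cells, and the other 41 and 9 cells met the rule through MESP1 and MIXL1 alone. The subset of 9 cells was too small for the planned test, so values are given without one, and the genes named here were chosen after their values were seen. Cells with MSGN1 or TBX6 had more HOX RNA. Of 21 HOX genes with at least 10 UMIs, 14 were higher in them in both samples and 0 were lower in both, beside 27.8% higher and 25.5% lower in both among 10445 genes. HOXC6 was at 142 and 60.5 CPM in cells with MSGN1 or TBX6 and at 12.3 and 0 in cells with neither. HOXC9 was at 41.7 and 27.2 CPM against 0 and 0, and HOXB9 at 184 and 145 against 92.6 and 33.5. All 3 HOX genes thus lay lower in the MESP1 and MIXL1 cells of each sample. WNT5A followed, at 646 and 460 CPM against 324 and 201.

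Of 14 streak genes outside the rule, 8 were higher in both samples in cells with neither MSGN1 nor TBX6 and 1 was lower. LHX1 was at 219 and 159 CPM in them and at 44.3 and 30.2 in cells with MSGN1 or TBX6. NODAL was at 21.6 and 58.7 CPM against 2.69 and 9.07, and EOMES at 33.9 and 41.9 against 18.8 and 9.07. In blastoid 4, LHX1 and EOMES were each detected in 1 of the 9 cells with neither gene, and NODAL in 2. Without that cell LHX1 had 0 UMIs there, and its order was reversed. NODAL and EOMES rest on 19 and 33 UMIs in all. MIR302CHG was at 173 and 50.3 CPM against 22.8 and 6.05, and GAL at 259 and 553 against 94.1 and 93.7. POU5F1, a rule gene, was detected in 21 of the 41 cells with neither gene and 29 of the 93 others in blastoid 3, but in 4 of 9 and 17 of 30 in blastoid 4, the opposite order. Hypoxia and glycolysis genes were also higher in both samples in cells with neither gene in 8 of 11 cases. HAND1 was at 744 and 754 CPM without and 641 and 1073 CPM with MSGN1 or TBX6, so its order differed between the samples.

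**Figure D5:**
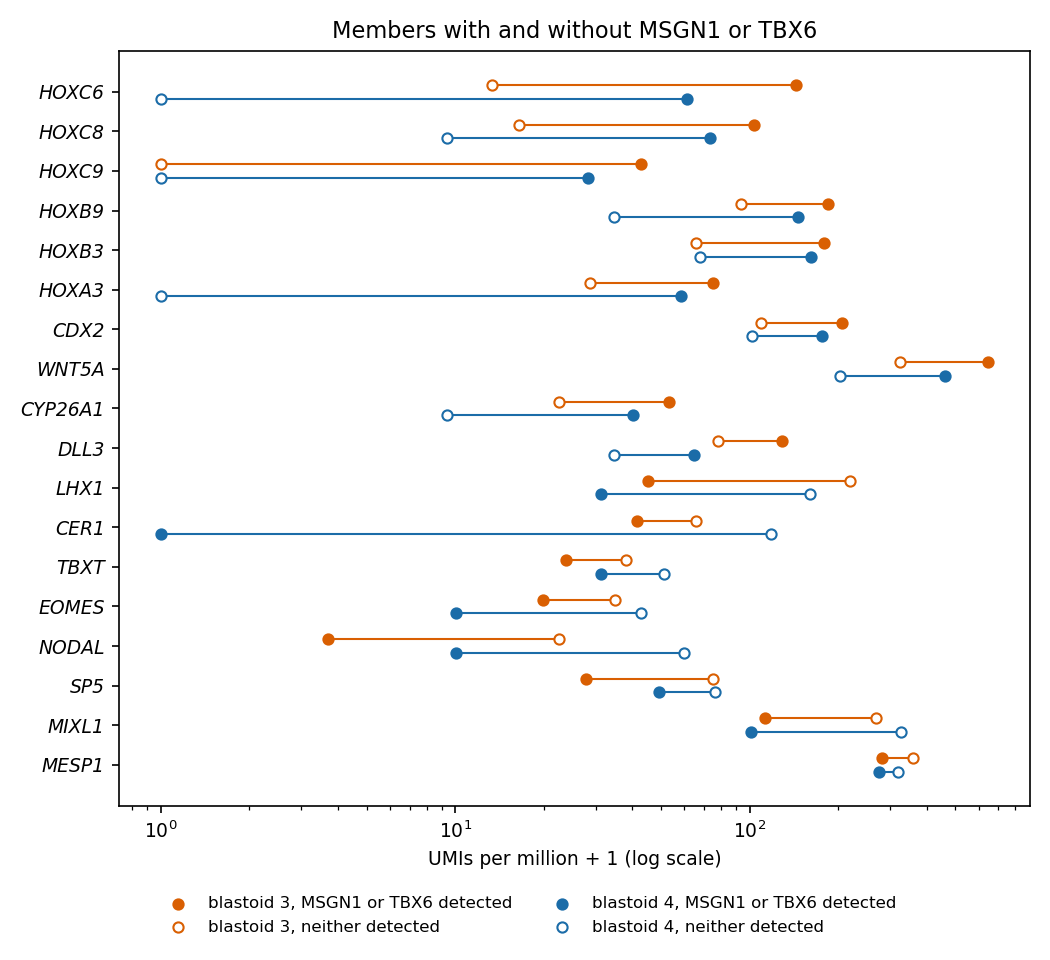
CPM + 1 (horizontal axis, logarithmic) of 18 genes in nascent mesoderm cells with MSGN1 or TBX6 (filled points) and with neither (open points), with a line for each blastoid sample. HOX genes, CDX2 and WNT5A lie higher where MSGN1 or TBX6 was detected, and LHX1, CER1, EOMES, NODAL and MIXL1 lie higher where neither was, although in blastoid 4 LHX1, CER1 and EOMES there each came from 1 of 9 cells; the rule itself requires MESP1 or MIXL1 there.

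A second split followed the pluripotency genes left within the limit. The cells with 0 of the 5 detected (66 and 14 cells) had a median mesoderm UMI sum of 3 and 2.5, below the 4 and 7 of cells with 1 such gene and the 6.5 and 8.5 of cells with 2, and their depth was lower too (6851 and 9811 against 8249.5 and 11884 UMIs for 1 gene). Streak genes were lower in both samples in 11 of 14 cases in the cells with 0, beside 28.0% of all genes. LHX1 was at 67.3 and 0 CPM in cells with 0 and at 121 and 93.3 in cells with 1 or 2. MIXL1 was at 44.2 and 14.4 CPM against 251 and 225, whereas MSGN1 was at 324 and 158 against 142 and 161. MIXL1 was thus lower in both samples in the cells with 0, while MSGN1 was higher in blastoid 3 and about level in blastoid 4. Stromal matrix genes were higher in both samples in 10 of 15 cases in the cells with 0, beside 25.6% of all genes, and COL3A1 was at 164 and 165 CPM against 40.5 and 116. The part that depth plays in this split was not tested.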

How the data were processed

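The deposited tables hold UMI counts per gene and cell, per the file headers. The submitters' processing notes name Cell Ranger and GRCh38. They were made from 3' single-cell libraries, and other steps are not given in the sources used here. The members, gene lists and rule for named genes were chosen with earlier results of these data known. Cells with at least 500 genes were kept. Scrublet (scanpy 1.11.5, expected rate 6%) ran as a check only. Counts were summed per sample and class and tested with edgeR 4.0.16 (quasi-likelihood, TMM, filterByExpr, Benjamini-Hochberg, sample as a block among blastoid classes), after tests on simulated data. The sample is a true block, because the classes come from the same 2 blastoid samples. Calls needed an adjusted p under 0.05, and counts of called genes leave out the 14 rule genes. Named genes were up to 6 called genes per list by level, preset markers, and the 10 or 5 largest changes each way whose log2 CPM averaged 5 or more. Detection was compared after thinning to 2000 UMIs. Intervals cover counting error only. DESeq2 1.42.0 was an alternative.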

Additional observations from a re-analysis of the deposited data

Results flagged for a closer look

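Among barcodes with under 500 genes, which no comparison used, 2 of 1198 in blastoid 3 met the other limits of the rule (0.167%), while 0 of 120 in blastoid 4 (which allows up to 2.5%), 0 of 3676 in hESC 1 and 0 of 4400 in hESC 2 did. This was set apart because a signal appeared outside the cells analysed and above the stem cell samples. The share in blastoid 3 exceeds the 0.0816% and 0.0682% that counts of 0 in hESC 1 and hESC 2 would allow. It rests on 2 barcodes and lies below the 0.250% that a count of 0 among 1198 would allow. Whether it differs from the stem cell samples was not tested.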

How the results depend on the processing

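The share of cells was 10.1% with a mesoderm UMI sum of at least 1, 2.85% with at least 3, 1.39% with cells thinned to 2000 UMIs before the rule, and ranged from 2.00% to 5.85% with 1 sample left out. The number of genes called against all other blastoid cells (1478) was 361 with DESeq2, 969 against depth-matched cells, 305 with no replicate block, 373 with sums thinned to the smallest and 326 to 772 with 1 sample left out. Among cells with 0 pluripotency and 0 amnion genes (chosen after seeing the data) it was 376, and in the comparisons with amnion-marker and remaining cells 2504 and 329. Against remaining cells (1099) it was 657 with DESeq2, 461 with no replicate block and 346 to 906 with 1 sample left out. The count against pluripotency-marker cells (1901) was 1054 with no replicate block and 850 to 1009 with 1 sample left out, and that against amnion-marker cells (4289) was 2115 to 3305. Against stem cells (4369) it was 2764 with DESeq2, 1414 with thinned sums and 2165 to 4311 with 1 sample left out. The cause of these shifts was not tested. With library size as the only scaling, the higher share of calls rose from 46.4% to 57.4% against pluripotency-marker cells, from 47.6% to 60.8% against amnion-marker cells and from 47.8% to 66.0% against stem cells, where the median of all genes shifted by 0.22 (log2). Against remaining cells, calls were 52.3% higher, and 42.1% with no filter on low counts or 40.4% among cells with 0 pluripotency and 0 amnion genes. Log2 differences changed sign for LINC01356 (-0.43) and WNT3 (-1.23) among those cells, for RSPO3 against depth-matched cells (0.14), among those cells (0.031) and with a UMI sum of at least 3 (0.36). With 1 sample left out they ranged from -0.68 to 1.26 for HES7, -0.047 to 0.15 for FOXF1 and -1.81 to 0.36 for RSPO3. Against pluripotency-marker cells EOMES (-0.46) changed sign among those cells, TBXT (-2.83) and SP5 (-1.89) were called lower there, and with 1 sample left out TBXT ranged from -0.077 to 0.056 and SP5 from -0.55 to 0.24. Of the genes that changed sign only LINC01356 had been called. Fits that left out a sample took their spread from the stem cell sums, so the lone blastoid sample was assumed to vary like them. The alternatives for MSGN1 or TBX6 against neither were not run, since no test was made. With 39 cells in blastoid 4, depth limits genes under a few UMIs.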
